A study of Mus musculus with 23 samples.

Results

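The genes described here encode components of T cell receptor signalling: the CD3 chains of the receptor, its coreceptor and accessory receptors, and the kinases, adaptors, phosphatases, effectors, transcription factors and inhibitors that act below them. They were chosen by name, as a list of 40 genes with no cut on a measured value. The list was drawn up with earlier results of these data known. A probe set that carries the symbol alone was found for 39 of them, of 18193 genes on the array, and each gene is represented by its brightest probe set on average. The kinase Lck was not analysed here. All 39 members passed the filter on dim genes, as did 12516 genes in all. That filter asks for a mean above 6.27 on the log2 scale in at least 1 group, and 38 members met it in every group. The exception was Txk, whose mean in 1 group lay below it.

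When the receptor binds peptide on a presenting cell, Lck and Fyn phosphorylate the CD3 chains, Zap70 docks there and phosphorylates the adaptors Lat and Lcp2, and these gather Plcg1, Vav1 and Grap2. Lipid messengers made by Plcg1 then open the calcium route to the NFAT factors, the Rasgrp route to Ras and the Prkcq, Bcl10 and Malt1 route to NF-kB, while Csk, Ptpn22, Ptpn6, the Ubash3 and Cbl proteins and the diacylglycerol kinases hold the signal back. Regulatory T cells (Treg cells), which are defined by the factor Foxp3 and hold immune responses in check, need receptor signals both to form and to act.

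The data are 23 Affymetrix arrays in 9 groups, made from CD4+ T cells that were sorted from mice. All mice were males of 6 to 10 weeks, and the RNA on each array was a pool of several mice, so the spread between arrays is a spread between pools. In every group the sort kept CD3+ cells and left out cells with B220, CD8a or CD11b/c. The study set Treg cells of different origin against their closest non-Treg partners and against each other.

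The gut cells were those of the lamina propria (LP) of the small intestine of C57BL/6 mice with a Foxp3/GFP reporter, as GFP+ LP Treg (2 arrays) and GFP- LP Tconv (2 arrays), with 4 to 6 mice per array. The same reporter mice gave GFP+ Treg cells of peripheral lymph nodes (LN), sorted in 3 subsets of 2 arrays each, with 4 to 6 mice per array: CD103-Klrg1-, then CD103+Klrg1-, then CD103+Klrg1+. CD103 is an integrin chain and Klrg1 a receptor found on activated lymphocytes. The homeostatic groups were BDC2.5/NOD cells, which carry 1 transgenic receptor for an islet antigen: GFP- CD4+ T cells were injected into NOD RAG-/- hosts, which have no lymphocytes of their own, and after 14 days their GFP+ progeny (homeostatic Foxp3+, 3 arrays) and GFP- progeny (homeostatic Foxp3-, 3 arrays) were sorted from spleen and lymph nodes, with 2 to 3 hosts per array. The DEC groups were HA6.5/Thy1.2/RAG-/-/Balb/c cells, which carry 1 transgenic receptor for a haemagglutinin peptide: CD4+CD25- T cells went into Balb/c hosts that received 1 injection of 50 ng DEC-HAPeptide, the peptide coupled to an antibody against a dendritic cell receptor. After 3 weeks CD25+ (3 arrays) and CD25- (4 arrays) T cells were sorted from spleen and lymph nodes, with 5 to 10 mice per array. Strain, receptor, host and tissue therefore cannot be told apart between the gut and lymph node, homeostatic and DEC systems, and groups are compared mainly within them.

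Every group expressed the T cell markers on the array, 7 of 7 above the filter. Foxp3 itself lay from 10.08 to 11.50 on the log2 scale on the arrays of the Foxp3+ and CD25+ groups, from 4.57 to 4.81 in LP Tconv and homeostatic Foxp3-, and from 6.92 to 8.48 in DEC CD25-, which was not sorted on Foxp3. The median intensity of an array was between 63.7 and 81.1. The 2 dimmest arrays were DEC CD25- replicates 3 and 4, at 68.5 and 63.7, and in replicate 3 the signal of the Gapdh control probe sets was 6.59 log2 units stronger at the 3' end than at the 5' end, against 1.63 to 3.92 on the other 22 arrays. Called results that use the DEC groups are therefore given with and without both. In sorted pools a lower signal can mean less RNA per cell or fewer cells that carry it, and these cannot be told apart.

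Averaged over the 39 members, the log2 level was 10.73 ± 0.17 (SD, n = 2) in LP Treg and 10.99 ± 0.32 (n = 2) in LP Tconv. It was 10.20 ± 0.15 (n = 3) in homeostatic Foxp3+ and 10.46 ± 0.07 (n = 3) in homeostatic Foxp3- cells, and in the lymph node subsets it ran from 10.46 to 10.52. DEC CD25+ cells stood at 10.57 ± 0.18 (n = 3) and DEC CD25- cells at 10.26 ± 0.56 (n = 4), where replicate 3 alone lay at 9.47. The same arrays averaged 7.91 to 8.25 over all tested genes by group. The module mean thus moved by less than 1 log2 unit between groups, and single members moved further.

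**Figure D1:**
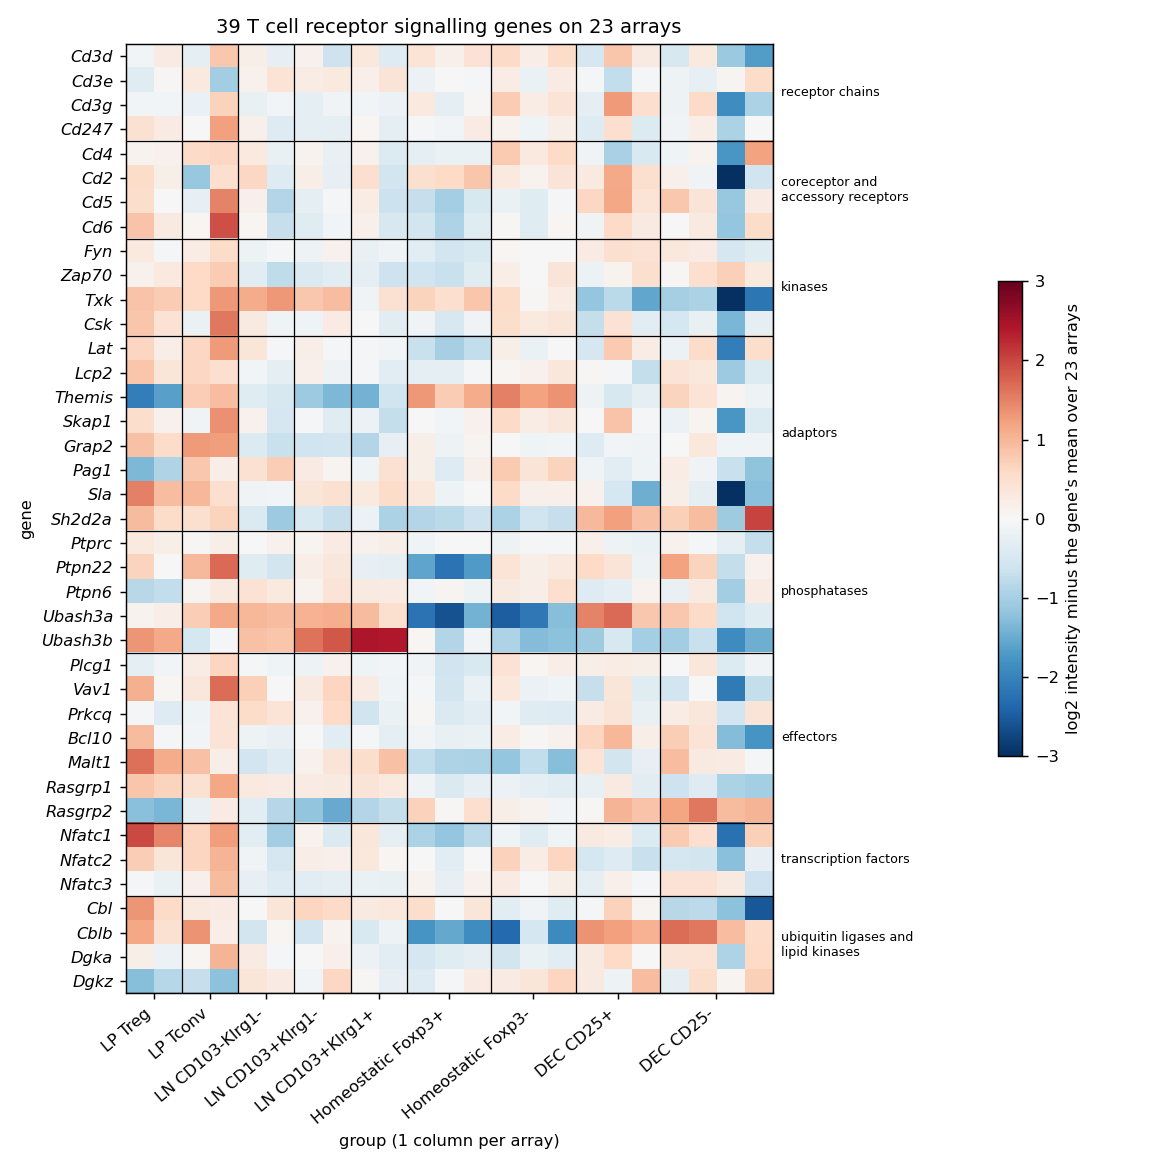
Each row is 1 of the 39 members, ordered by role, and each column 1 of the 23 arrays by group; colour is the log2 intensity minus that gene's mean over all arrays, and differences beyond 3 take the end colours. The CD3 chains are pale on most arrays, while Themis, Ptpn22, Ubash3a, Ubash3b and Txk carry strong colours in whole groups, and DEC CD25- replicate 3 is blue for many genes.

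The members differed widely in how far they varied. The 9 group means of a member spanned a median of 1.49 log2 units, against 1.01 over all tested genes, and 11 members spanned 2 or more, against 13.7% of all tested genes. The receptor chains spanned about as far as a gene in general, with a median of 0.99: Cd3e spanned 0.65, Cd247 0.89, Cd3g 1.09 and Cd3d 1.19 log2 units. For Cd3g and Cd3d the low end was DEC CD25-, the group with the dim arrays. Over the 5 C57BL/6 groups the chains had a median span of 0.58, against 0.495 for all tested genes. Over the 9 groups the smallest span of all members, 0.47, belonged to Ptprc, the CD45 phosphatase that keeps the Src kinases active. That holds for the probe set used, while the gene's other probe set had group means from 10.44 to 12.66. The 5 phosphatases had a median span of 3.17 and the 8 adaptors one of 1.77. Spans of 3 or more were reached by 5 members, against 4.16% of all tested genes: Txk (3.02), Ptpn22 (3.17), Themis (3.20), Ubash3a (3.42) and Ubash3b (3.68). For Txk and Ubash3b the low end was DEC CD25- as well. For Ubash3a it was homeostatic Foxp3+, at 6.274, just above the filter. That span holds for the probe set used, while the other Ubash3a probe set had group means from 7.44 to 9.32. Between-array scatter was also wider in the members, with a median residual SD of 0.41 log2 units against 0.31 over all tested genes.

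Of these widely varying members, Themis, an adaptor needed for T cell selection in the thymus, Ubash3b, a phosphatase that acts on Zap70, and Ptpn22, a phosphatase that acts on Lck and Zap70, each passed the test between Treg cells and their partners in at least 1 system. Their upstream sequences are shown to let the promoter be read beside these values. Each line gives the 250 bases before a listed start of the gene, read along the gene's strand, from RefSeq on GRCm38.p6, where 30 members have such a window; 1 of 2 listed windows per gene is shown. The windows are chr10:28668110-28668359 on the + strand for Themis, chr9:41158063-41158312 on the - strand for Ubash3b and chr3:103859545-103859794 on the + strand for Ptpn22. Capitals mark GGAAA or its reverse complement TTTCC, the core letters that NFAT factors bind.
Themis: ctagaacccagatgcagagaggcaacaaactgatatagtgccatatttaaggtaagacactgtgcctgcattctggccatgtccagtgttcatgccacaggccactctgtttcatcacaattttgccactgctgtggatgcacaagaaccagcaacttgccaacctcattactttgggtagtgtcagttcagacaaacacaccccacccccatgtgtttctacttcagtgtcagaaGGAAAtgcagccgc
Ubash3b: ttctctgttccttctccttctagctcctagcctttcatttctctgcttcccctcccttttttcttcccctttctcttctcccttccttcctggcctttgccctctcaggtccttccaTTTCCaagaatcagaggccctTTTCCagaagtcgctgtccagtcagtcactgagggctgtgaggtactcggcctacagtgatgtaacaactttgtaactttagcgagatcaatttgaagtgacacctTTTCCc
Ptpn22: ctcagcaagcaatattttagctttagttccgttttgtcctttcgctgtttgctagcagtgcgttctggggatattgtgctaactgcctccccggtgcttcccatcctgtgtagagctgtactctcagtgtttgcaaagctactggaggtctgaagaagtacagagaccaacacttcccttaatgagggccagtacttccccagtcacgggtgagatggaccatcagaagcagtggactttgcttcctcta
The search covered both strands for the NFAT core GGAAA, the forkhead motif GTAAACA and the Runx motif TGTGGT, none of which contains another. The NFAT core occurred 1 time in the Themis window, 3 times in the Ubash3b window and 0 times in the Ptpn22 window, and 55.6% of 32851 windows of this length hold it. Forkhead and Runx letters, held by 3.17% and 14% of all windows, were in none of the 3 windows shown. These genes were picked for display after their values were seen, and a match of letters shows no binding.

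In the gut, LP Treg cells carried less Themis, Pag1 and Rasgrp2 and more Ubash3b than LP Tconv cells of the same tissue. The fit was a linear model over all 23 arrays with limma, and a member counts as called at a Benjamini-Hochberg adjusted p under 0.05 over all tested genes. By that rule 4 of 39 members were called, 1 higher and 3 lower, and 2.7% of all tested genes were called. The median log2 fold change of the members was -0.29, against -0.0075 for all tested genes, and 12 of 39 members lay above 0. At an unadjusted p under 0.05 there were 10 members, 2 higher and 8 lower, with 8.71% of all tested genes past that mark. The arrays of both groups did not overlap for 15 members, 4 higher and 11 lower; 30.9% of all tested genes did not overlap.

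**Figure D2:**
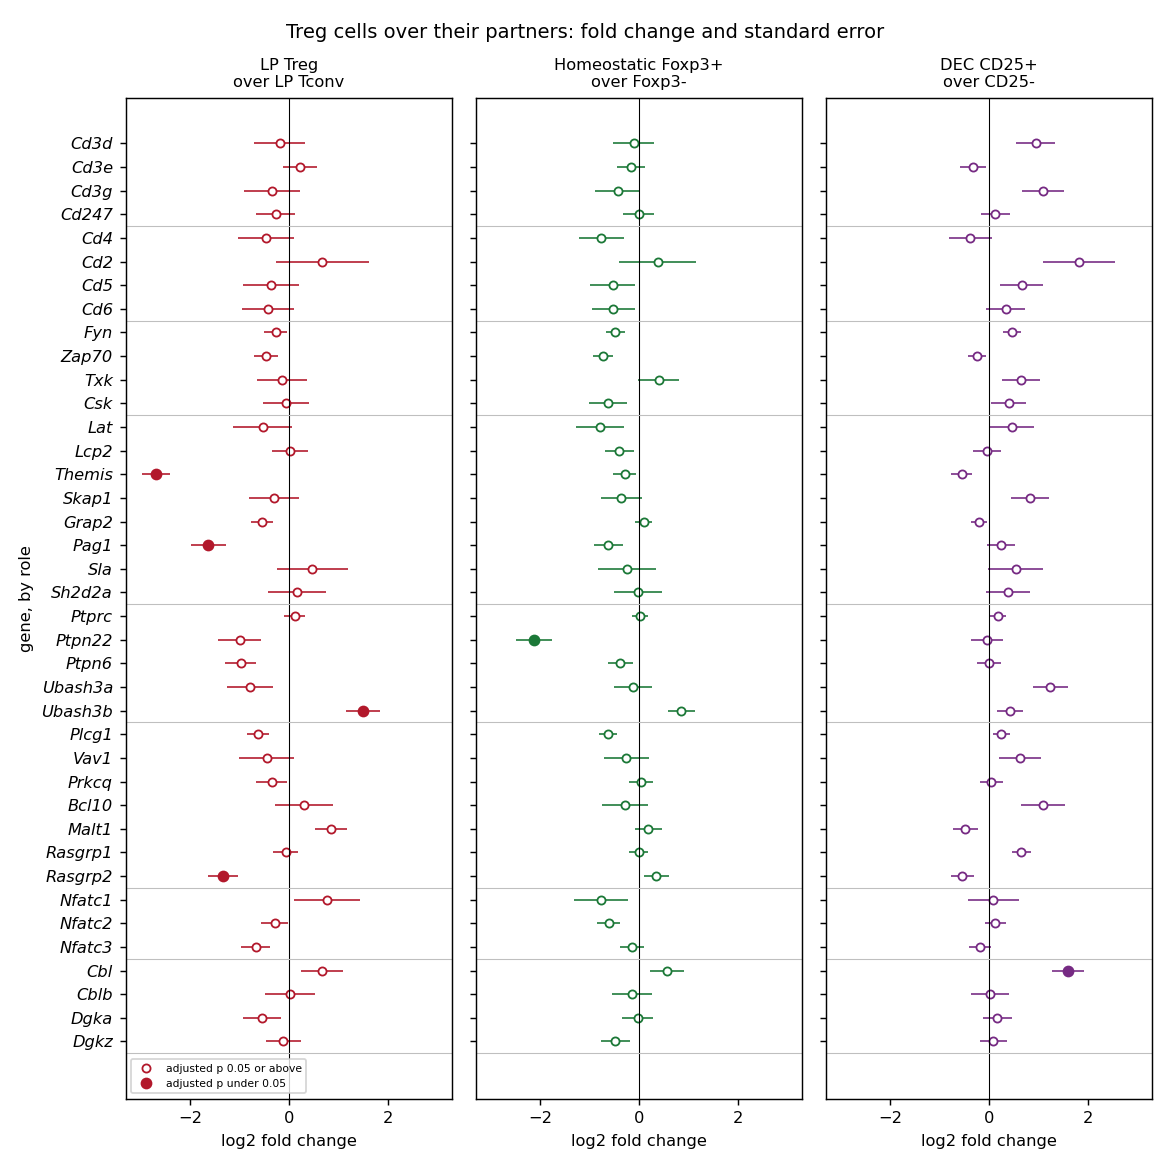
Log2 fold change (point) and standard error (bar) of each of the 39 members in Treg cells over their partners, in the gut, homeostatic and DEC systems; filled points have an adjusted p under 0.05. Themis, Pag1, Rasgrp2 and Ubash3b are filled in the gut, Ptpn22 in the homeostatic system and Cbl in the DEC system.

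Themis stood at 7.69 and 8.12 on the log2 scale on the LP Treg arrays and at 10.48 and 10.69 on the LP Tconv arrays. The LP Treg values were the lowest of all 23 arrays. The log2 fold change was -2.68 ± 0.28 (SE), a 6.42-fold lower level, with an adjusted p of 1.18e-05 (limma), and its 4 probe sets all went the same way, from -1.64 to -2.68. A fit of the 4 gut arrays alone ended this call, at an adjusted p of 0.0891, the highest of a range from 4.67e-06 over 10 alternatives.

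Pag1, the membrane adaptor that brings Csk to the Src kinases, stood at 9.40 and 9.85 in LP Treg and at 11.56 and 10.95 in LP Tconv, with no overlap. Its log2 fold change was -1.63 ± 0.36 (adjusted p 0.015), and its 4 probe sets agreed in direction, the others from -1.12 to -0.06. Averaging the probe sets gave -0.80 ± 0.21 (adjusted p 0.0462). Over 10 alternatives the adjusted p ran from 0.000905 to 0.231, and leaving out LP Treg replicate 1 gave 0.226 and leaving out LP Tconv replicate 1 gave 0.109. Rasgrp2, an exchange factor that switches on Rap in response to calcium, stood at 7.30 and 7.20 in LP Treg and at 8.36 and 8.81 in LP Tconv. Those groups did not overlap either, and the log2 fold change was -1.33 ± 0.31 (adjusted p 0.0191, range 0.00899 to 0.225). This call ended without LP Treg replicate 1 (0.122), LP Treg replicate 2 (0.145) or LP Tconv replicate 2 (0.225).

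Ubash3b went the other way, at 10.63 and 10.44 in LP Treg against 8.79 and 9.28 in LP Tconv. The groups lay apart, with a log2 fold change of 1.51 ± 0.34, a 2.84-fold higher level (adjusted p 0.018, range 0.000904 to 0.199). Its 3 probe sets gave 1.23 to 1.51. The call ended without LP Treg replicate 1 (0.191), LP Treg replicate 2 (0.0801) or LP Tconv replicate 1 (0.112). A group left with 1 array is assumed here to vary like the others, and in a fit of the gut arrays alone none of these 3 calls held, with adjusted p of 0.231 for Pag1, 0.223 for Rasgrp2 and 0.199 for Ubash3b.

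Among members that were not called, the most negative differences were those of Ptpn22 (-0.99 ± 0.44, adjusted p 0.476) and Ptpn6, the SHP-1 phosphatase (-0.97 ± 0.31, adjusted p 0.141). Ptpn6 was called without DEC CD25- replicates 3 and 4, at the same difference with an SE of 0.20 (adjusted p 0.00607). The most positive were Malt1, the paracaspase of the NF-kB route (0.85 ± 0.33, adjusted p 0.326), and Nfatc1 (0.77 ± 0.67, adjusted p 1.00). The 4 receptor chains and the 4 kinases held no called member. All 4 kinases and 3 of the 4 chains had log2 fold changes below 0, with medians of -0.21 and -0.22. Markers of plasma cells summed to 1215 to 2142 intensity units in LP Treg and 717 to 1267 in LP Tconv, with 2 of 3 above the filter in both, and markers of CD8 T and NK cells to 293 to 365 and 553 to 628. Single markers carried these sums: Jchain had log2 means of 10.44 and 9.46, but Sdc1 of 7.60 and 7.66. The NK cell receptor chain Klrd1 had means of 5.34 and 8.13, but Cd8a of 6.86 and 6.92. The part of other cells in these differences was not tested.

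A wider list of 110 other genes of the pathway, such as costimulators, calcineurin subunits and feedback inhibitors, had 95 tested members, of which 5 were called in the gut, 2 higher and 3 lower. Trat1, a transmembrane adaptor found with the receptor complex, fell by 2.15 on the log2 scale (adjusted p 0.00106), and Pik3r5, a regulatory subunit of a phosphoinositide kinase, fell by 1.89 (adjusted p 0.00432). Ppp3cc, a catalytic subunit of calcineurin, fell by 1.04 (adjusted p 0.00857). Ptprj, a receptor phosphatase, was higher by 1.21 (adjusted p 0.0123), with both group means low, at 6.36 and 5.15.

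**Figure D3:**
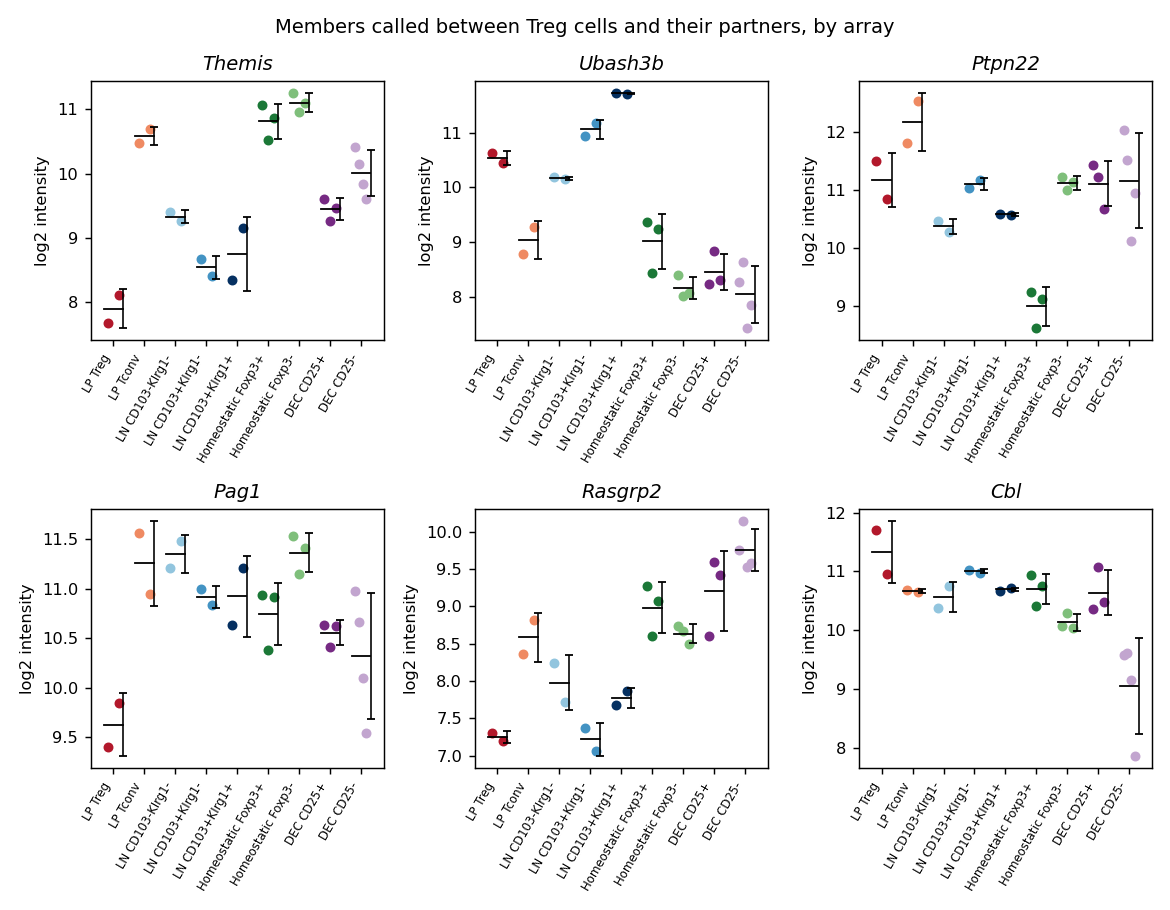
Log2 intensity of the 6 members called between Treg cells and their partners, 1 point per array, with the group mean (line) and SD (bar) for all 9 groups. The 2 LP Treg arrays are the lowest of all for Themis, the 3 homeostatic Foxp3+ arrays for Ptpn22 and the 4 DEC CD25- arrays for Cbl.

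In the homeostatic system, 1 member separated Foxp3+ from Foxp3- progeny of the injected cells: Ptpn22 was lower in the Foxp3+ cells. It stood at 9.25, 8.62 and 9.13 on the log2 scale on the Foxp3+ arrays and at 11.23, 11.00 and 11.13 on the Foxp3- arrays. The Foxp3+ values lay below every other array of the series, all of which were at 10.12 or above. The log2 fold change was -2.12 ± 0.36, a 4.36-fold lower level, with an adjusted p of 0.00227 (limma), and it was called under all 12 alternatives (6.1e-05 to 0.0173). The gene has a single probe set, so no second one could be compared.

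That 1 called member of 39 stands beside 1.76% of all tested genes called. Taking the replicate number as a pair raised the count to 4, with 3.84% of all genes called. The 3 added members were Zap70 (-0.73 ± 0.13, adjusted p 0.01), Plcg1 (-0.62 ± 0.14, adjusted p 0.0393) and Ubash3b (0.86 ± 0.20, adjusted p 0.0434). Without the pairing their adjusted p were 0.0855, 0.125 and 0.198. Leaving out DEC CD25- replicates 3 and 4 also raised the count to 4, with no share of all genes given here for that fit. Leaving them out narrows the shared spread. The paired fit likewise takes DEC CD25- replicate 4, which has no partner, out of the shared spread. It also blocks the gut and lymph node arrays by number, which enters that spread too. Zap70 stood at 9.68, 9.61 and 9.91 in Foxp3+ and at 10.47, 10.27 and 10.64 in Foxp3- cells, with no overlap. Plcg1, the phospholipase that makes the lipid messengers, lay at 10.32, 9.83 and 9.99 against 10.88, 10.49 and 10.63. Ubash3b lay at 9.37, 8.44 and 9.24 against 8.39, 8.01 and 8.08, and the groups came close without overlapping.

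Most members had differences below 0, as Ptpn22 did. The median log2 fold change was -0.26, against -0.03 for all tested genes, and 9 of 39 members lay above 0. The arrays did not overlap for 19 members, 3 higher and 16 lower, against 22.3% of all tested genes, and 7 members had an unadjusted p under 0.05 (7.57% of all genes). The 3 NFAT factors and the 4 receptor chains all had differences below 0, with medians of -0.62 and -0.14. Lat, the adaptor that Zap70 phosphorylates, differed by -0.79 ± 0.49 and Nfatc1 by -0.76 ± 0.55, neither called (adjusted p 0.993 and 1.00), and Cbl by 0.57 ± 0.34 (adjusted p 0.960). In a fit of the 6 homeostatic arrays alone 7 members were called, all lower in Foxp3+ cells: Ptpn22, Nfatc1 (adjusted p 0.0129), Lat (0.0166), Cd4 (0.018), Zap70 (0.0214), Csk (0.0374) and Fyn (0.0426). The share of all tested genes called in that fit is not given here, so this count has no background beside it.

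Markers of other cells were expressed in both homeostatic groups. Markers of CD8 T and NK cells, 4 of 6 above the filter in both groups, summed to 1564 to 2695 intensity units in Foxp3+ and 3739 to 4288 in Foxp3- cells. Myeloid markers, 9 of 10 above the filter, summed to 3015 to 8995 against 4861 to 14260, and erythroid markers, 3 of 3, to 368 to 1974 against 629 to 3203. The myeloid and erythroid ranges of the groups overlapped. Among the CD8 T and NK cell markers, Eomes had means of 10.44 and 10.73 log2 units, and Klrd1, an NK cell receptor chain, of 8.34 and 10.87. Cd8a itself had means of 7.24 and 7.13 and Ncr1 of 6.525 and 6.646, while Cd8b1 and Klra8 lay below the filter in both groups. The part of other cells in the differences between the groups was not tested. Of the wider pathway list 4 of 95 genes were called, 3 higher and 1 lower. They were Egr2, a feedback factor linked to anergy (-2.15, adjusted p 0.00051), Dusp4, a MAP kinase phosphatase (3.22, adjusted p 0.00809), the inhibitory receptor Ctla4 (3.06, adjusted p 0.0084) and the kinase Tec (0.61, adjusted p 0.0491).

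In the DEC system the called member was Cbl, a ubiquitin ligase that tags activated kinases, and it was higher in CD25+ cells. Its log2 levels were 10.35, 11.08 and 10.48 on the CD25+ arrays and 9.57, 9.61, 9.16 and 7.86 on the CD25- arrays. The groups did not overlap, and the CD25- values lay below every other array of the series. The log2 fold change was 1.59 ± 0.32, a 3.00-fold higher level (limma, adjusted p 0.0327), and the 3 probe sets went the same way, the other ones by 0.19 and 0.96. Over 13 alternatives the adjusted p ran from 0.0132 to 0.813. Without CD25- replicates 3 and 4 the log2 fold change was 1.05 ± 0.23 and no longer called (adjusted p 0.0662), and the mean of the probe sets gave 0.91 ± 0.17 (adjusted p 0.0172). The adjusted p was 0.285 without CD25+ replicate 2, 0.0939 without CD25+ replicate 3 and 0.813 in a fit of the 7 DEC arrays alone.

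Called genes made up 0.495% of all tested genes in this comparison, and 11 members had an unadjusted p under 0.05, 9 higher and 2 lower (14.8% of all genes). With the replicate number as a pair 2 members were called (1.11% of all genes). CD25- replicate 4, a dim array, has no CD25+ array of its number, so it carries no weight in that fit. The added member was Ubash3a, the lymphoid relative of Ubash3b, at 1.08 ± 0.18 (adjusted p 0.019), or 1.23 ± 0.36 (adjusted p 0.162) without the pairing. Without CD25- replicates 3 and 4 its difference was 0.65 ± 0.35 (adjusted p 0.869), and without CD25- replicate 1 it was 1.47 ± 0.35 and called (adjusted p 0.0396). Ubash3a stood at 9.85, 10.06 and 9.17 in CD25+ and at 9.17, 8.92, 7.76 and 8.00 in CD25- cells, so the groups touched at 9.17. Arrays did not overlap for 4 members, all higher in CD25+ cells (5.46% of all genes): Cbl, Ubash3a, Cd2 and Rasgrp1. The most negative differences were those of Themis (-0.56 ± 0.21, limma, adjusted p 0.263) and Rasgrp2 (-0.55 ± 0.23, adjusted p 0.292), neither called. Without CD25- replicates 3 and 4 they were -0.84 ± 0.23 (adjusted p 0.187) and -0.75 ± 0.27 (0.529).

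The direction of the other members here rests on the scale and on 2 arrays. On the deposited scale 28 of 39 members lay above 0, with a median log2 fold change of 0.24 against 0.16 for all tested genes. After quantile normalization it was 18 of 39, with medians of -0.04 and -0.05, and without CD25- replicates 3 and 4 it was 18 of 39, with medians of -0.07 and 0.0045. Cd2, an adhesion receptor, shows how: it lay at 11.37, 12.22 and 11.58 in CD25+ and at 11.24, 10.99, 6.91 and 10.49 in CD25- cells, where replicate 3 stands far below the next array, and its difference of 1.82 ± 0.72 was not called (adjusted p 0.273). Cd3g lay at 11.07, 12.63 and 11.88 against 11.21, 11.94, 9.50 and 10.42, and Cd3d at 11.65, 12.99 and 12.43 against 11.68, 12.44, 11.05 and 10.49. For both CD3 chains replicates 3 and 4 were the low arrays and the groups overlapped. Rasgrp1, the exchange factor that loads Ras below Plcg1, lay at 11.63, 12.12 and 11.55 against 11.24, 11.49, 10.91 and 10.84, a difference of 0.65 ± 0.19 (adjusted p 0.156), or 0.41 ± 0.20 (adjusted p 0.802) without replicates 3 and 4. Summed T cell markers were 17780 to 23560 intensity units in CD25+ and 9850 to 21710 in CD25- cells, and myeloid markers 2165 to 5062 and 1085 to 2862, with 9 and 7 of 10 above the filter. Their part was not tested. Of the wider list 1 of 95 genes was called, the feedback inhibitor Cish, higher by 1.00 (adjusted p 0.033). Without replicates 3 and 4 it was higher by 0.91 and not called (adjusted p 0.187).

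Whether a member differed between Treg cells and partners by unlike amounts in these systems was tested as a difference of differences. Themis was the 1 member called, and it was called for the gut against each of the other systems. The gut difference minus the homeostatic one was -2.39 ± 0.36 (limma, adjusted p 0.00191), called under all 16 alternatives (0.000604 to 0.0224), with 0.775% of all tested genes called. In homeostatic cells Themis stood at 11.06, 10.52 and 10.86 in Foxp3+ and at 11.25, 10.96 and 11.10 in Foxp3- arrays, which overlap, with a difference of -0.29 ± 0.23. The gut difference minus the DEC one was -2.13 ± 0.35 (adjusted p 0.00437), with 1.01% of all genes called. That call ended without LP Treg replicate 1 (0.0518) and in a fit of the compared groups alone (0.0694), where the range over 17 alternatives began at 0.00221. Without DEC CD25- replicates 3 and 4 it was -1.84 ± 0.33 and called (adjusted p 0.00882). DEC CD25+ cells stood at 9.61, 9.26 and 9.47 and CD25- cells at 10.41, 10.16, 9.83 and 9.60, a difference of -0.56 ± 0.21. Pag1 was not called for the gut minus DEC difference (-1.86, adjusted p 0.061) but was without DEC CD25- replicate 1 (-2.08, 0.0179) or replicate 2 (-1.98, 0.0485).

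Between the homeostatic and DEC systems 0 members were called by limma (0.336% of all genes), and 10 had an unadjusted p under 0.05 (8.41% of all genes). With the pairing Ptpn22 was called there, at -2.01 ± 0.36 (adjusted p 0.0314; -2.08 ± 0.49 and 0.088 without it), where 1.1% of all genes were called. Without DEC CD25- replicates 3 and 4 the unpaired value was -1.46 ± 0.36 (adjusted p 0.135), and without replicate 1 it was -2.37 ± 0.43 and called (0.0158). In the DEC groups Ptpn22 lay at 11.43, 11.23 and 10.67 in CD25+ and at 12.04, 11.51, 10.12 and 10.95 in CD25- cells. The pairing also raised the count for the gut minus homeostatic difference from 1 to 2, adding Rasgrp2 (-1.69 ± 0.35, adjusted p 0.0384; 0.056 without the pairing), and for the gut minus DEC difference from 1 to 3, adding Malt1 (1.47 ± 0.22) and Ubash3a (-1.86 ± 0.28), with 1.73% and 1.96% of all genes called. Without DEC CD25- replicates 3 and 4 and without the pairing, the last 2 stood at 1.59 ± 0.42 (adjusted p 0.0941) and -1.43 ± 0.52 (0.318). The Malt1 value rests on 1 probe set, with means of 10.00 in DEC CD25+ and 10.49 in CD25- cells. The gene's other probe sets went the opposite way there, at 11.02 and 9.40 against 10.91 and 8.92. In the gut they stood at 11.48 and 9.68 in LP Treg against 11.04 and 9.82 in LP Tconv. For Ubash3a the other probe set kept both directions. Rasgrp2 was also called without LP Tconv replicate 1 (0.0451), without homeostatic Foxp3+ replicate 2 (0.0361) and without DEC CD25- replicates 3 and 4 (0.0374). These comparisons share the gut or DEC arrays. In the paired fits DEC CD25- replicate 4, which has no partner, carries no weight. Those fits also block the gut and lymph node arrays by number, though pairs were not read there. Residuals of same-number gut arrays correlated at -0.0678.

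Among the lymph node Treg subsets the member that stood out was Ubash3b, which was higher in CD103+Klrg1+ cells. It stood at 10.19 and 10.15 on the log2 scale in CD103-Klrg1- cells, at 10.94 and 11.18 in CD103+Klrg1- cells and at 11.73 and 11.72 in CD103+Klrg1+ cells. The 3 subsets did not overlap, and the CD103+Klrg1+ values were the highest of all 23 arrays. From CD103-Klrg1- to CD103+Klrg1+ the log2 fold change was 1.55 ± 0.34, a 2.93-fold higher level (limma, adjusted p 0.0171), and its 3 probe sets gave 1.45 to 1.58. It was the 1 member called of 39, with 2.1% of all tested genes called. The call ended without any one of the 4 arrays, at 0.12 and 0.154 without CD103-Klrg1- replicates 1 and 2 and at 0.154 and 0.108 without CD103+Klrg1+ replicates 1 and 2, while the other 6 of 10 alternatives kept it (from 0.000936).

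Malt1 followed the same order of subsets on the probe set used. It lay at 9.55 and 9.74, then at 10.26 and 10.53, then at 10.67 and 11.01, again with no overlap. The gene's other probe sets had subset means of 9.45, 10.15 and 10.20, and of 8.48, 9.45 and 9.39. They rose when CD103 was gained and changed little when Klrg1 was gained. On the probe set used, the Malt1 difference between the end subsets was 1.20 ± 0.33 (adjusted p 0.0835), not called. Txk, a Tec family kinase, had the opposite order, at 8.72 and 8.92, 8.42 and 8.53, and 7.51 and 8.08, with a difference of -1.02 that was not called (adjusted p 0.799). Prkcq, the kinase that starts the NF-kB branch, lay at 12.26 and 12.12, 11.85 and 12.31, and 11.11 and 11.52, with a difference of -0.88 ± 0.31 (adjusted p 0.275). At an unadjusted p under 0.05 stood 3 members, Ubash3b, Malt1 and Prkcq (6.81% of all genes). Without DEC CD25- replicates 3 and 4 the count of called members rose from 1 to 3, with Malt1 (adjusted p 0.0476) and Txk (0.0452). The share of all genes called in that fit is not given here, so this count has no background beside it.

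The single steps gave no called member. From CD103-Klrg1- to CD103+Klrg1- limma called 0 of 39 members (0.0959% of all genes) and 4 had an unadjusted p under 0.05 (2.04% of all genes), namely Ubash3b (0.89 ± 0.34), Malt1 (0.75 ± 0.33), Themis (-0.79 ± 0.28) and Rasgrp2 (-0.76 ± 0.31). From CD103+Klrg1- to CD103+Klrg1+ it called 0 (0.647% of all genes), and Prkcq was the 1 member with an unadjusted p under 0.05 (-0.77 ± 0.31; 3.83% of all genes). In these 3 comparisons 11, 13 and 14 members had arrays that did not overlap, where 29.7%, 31% and 36.8% of all genes did so. Ptprj was the 1 of 95 other pathway genes called, higher in CD103+Klrg1+ than in CD103-Klrg1- cells by 1.49 (adjusted p 0.00241). B cell markers, 5 of 6 above the filter, summed to 2478 to 3870 intensity units in CD103+Klrg1+ and 1877 to 1958 in CD103-Klrg1- cells. In that order Ms4a1 had log2 means of 10.36 and 9.63, Cd79b of 9.097 and 8.095 and Cd22 of 9.735 and 9.02. Blk had 7.607 and 7.40, Pax5 6.47 and 6.431 and Cd79a 6.075 and 5.982. CD8 T and NK cell markers summed to 499.5 to 1860 and 565 to 759, and the CD103+Klrg1+ arrays had Klrd1 at 7.387 and 10.22. The part of other cells was not tested.

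**Figure D4:**
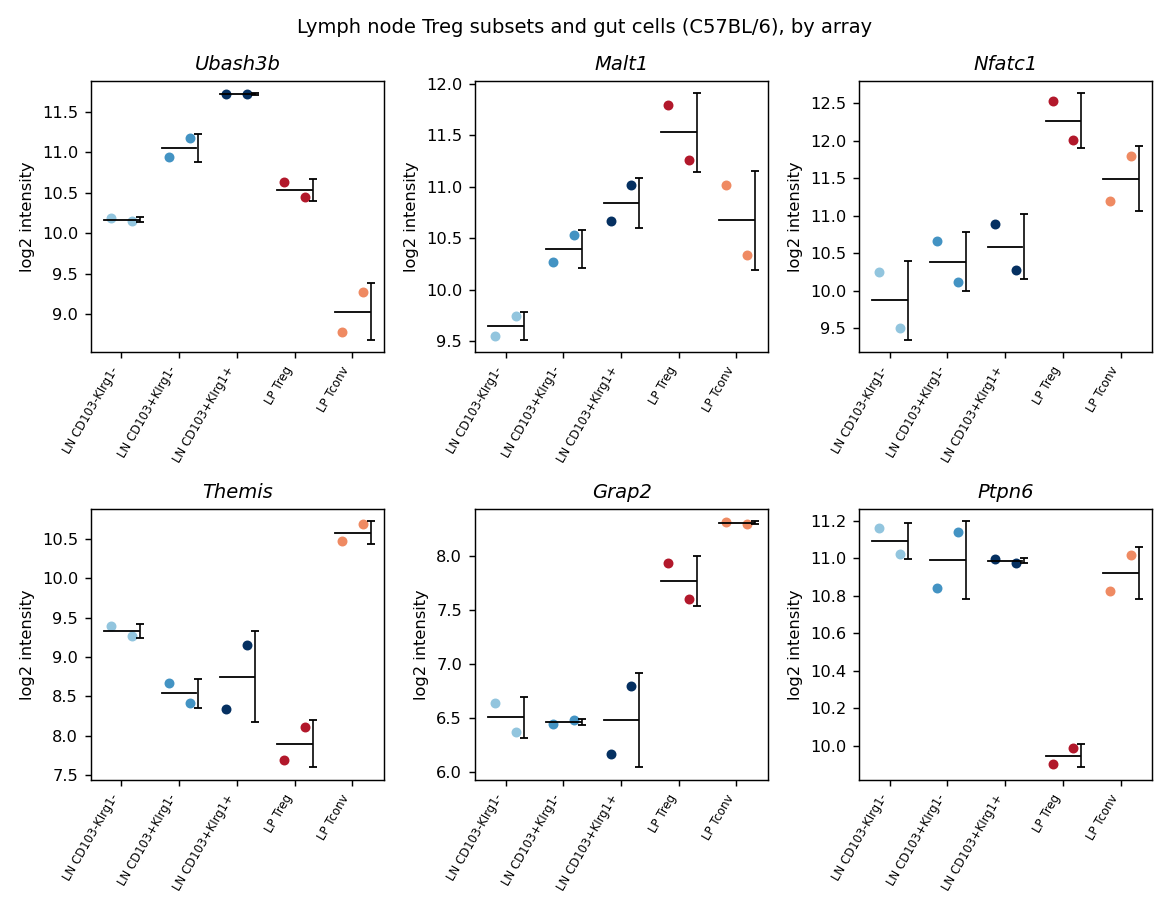
Log2 intensity of 6 members in the 3 lymph node Treg subsets and the 2 gut groups, all C57BL/6, 1 point per array, with mean (line) and SD (bar); the panels have different scales. On the probe sets plotted, Ubash3b and Malt1 step upward over the lymph node subsets, Grap2 lies above 7.5 on the gut arrays and below 7 in the lymph node, and Ptpn6 lies under 10 in LP Treg.

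LP Treg cells were also set against lymph node Treg cells of the same strain. Against CD103-Klrg1- cells 6 of 39 members were called, 2 higher and 4 lower, with 4.55% of all tested genes called. Malt1 and Grap2 were higher in the gut, and Themis, Pag1, Dgkz and Ptpn6 were lower. Against CD103+Klrg1+ cells Grap2 was called, and 2.05% of all genes were. Tissue and sort differ together in both comparisons. Markers of other cells moved with them: plasma cell markers, 2 of 3 above the filter in each group, summed to 1215 to 2142 intensity units in LP Treg, 280 to 295 in CD103-Klrg1- and 287 to 304 in CD103+Klrg1+ cells. Jchain alone carried that difference, with log2 means of 10.44, 6.43 and 6.45. Sdc1 had means of 7.60, 7.46 and 7.49, and Tnfrsf17, below the filter, of 4.68, 4.58 and 4.77. B cell markers, 4 of 6 above the filter in LP Treg and 5 of 6 in the others, summed to 777 to 855 in LP Treg, 1877 to 1958 in CD103-Klrg1- and 2478 to 3870 in CD103+Klrg1+ cells. Single ones differed: Ms4a1 had log2 means of 6.231, 9.63 and 10.36 in these groups, but Pax5 of 6.558, 6.431 and 6.47. CD8 T and NK cell markers summed to 293 to 365, 565 to 759 and 499.5 to 1860. Their part in the differences was not tested.

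Malt1 stood at 11.80 and 11.26 in LP Treg against 9.55 and 9.74 in CD103-Klrg1- cells, a log2 fold change of 1.88 ± 0.33 or 3.68-fold (adjusted p 0.00189), and its 3 probe sets gave 1.20 to 2.03. Grap2, an adaptor that links Lcp2 to Lat, stood at 7.94 and 7.60 in LP Treg, at 6.64 and 6.37 in CD103-Klrg1- and at 6.17 and 6.79 in CD103+Klrg1+ cells. The gut arrays did not overlap with either subset, and the log2 fold changes were 1.27 ± 0.21 (adjusted p 0.0014) and 1.29 ± 0.21 (adjusted p 0.00199). The gene's other probe set went the opposite way, by -0.18 and -0.20. The call against CD103+Klrg1+ ended without LP Treg replicate 1 (0.0588) or CD103+Klrg1+ replicate 1 (0.053), in a fit of the compared groups alone (0.0735) and with the mean of the probe sets (0.55 ± 0.19, adjusted p 0.19), in a range over 10 alternatives from 0.00137 to 0.19.

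Themis stood at 9.40 and 9.27 in CD103-Klrg1- cells, above its LP Treg values of 7.69 and 8.12, which gave -1.43 ± 0.28 (adjusted p 0.00434), and 3 of 4 probe sets went that way. Pag1 stood at 11.21 and 11.48 against 9.40 and 9.85, or -1.72 ± 0.36 (adjusted p 0.00713), with 2 of 4 probe sets in that direction. Both pairs of arrays lay apart. Dgkz, a lipid kinase that removes diacylglycerol, stood at 10.39 and 10.81 in LP Treg and at 12.03 and 11.91 in CD103-Klrg1- cells (-1.37 ± 0.36, adjusted p 0.0338). Ptpn6 stood at 9.90 and 9.99 against 11.16 and 11.02 (-1.15 ± 0.31, adjusted p 0.0402), and its LP Treg values lay below those of LP Tconv too, at 10.82 and 11.02.

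The calls against CD103-Klrg1- cells depended on the choice of probe set and, except that of Grap2, on single arrays. Averaging all probe sets of a gene ended all 6. The log2 fold change of Malt1 was then 1.70 ± 0.55 (adjusted p 0.094) and that of Ptpn6 -0.90 ± 0.44 (0.333), both within 1.5 times the value of the brightest probe set. The others moved further, to 0.54 ± 0.19 for Grap2 (0.111), -0.64 ± 0.27 for Themis (0.217), -0.33 ± 0.21 for Pag1 (0.527) and -0.85 ± 0.45 for Dgkz (0.382). Grap2 was called without each of the 4 arrays in turn. Without LP Treg replicate 1 the adjusted p was 0.0557 for Malt1, 0.0997 for Themis, 0.126 for Pag1, 0.353 for Dgkz and 0.267 for Ptpn6, and without LP Treg replicate 2 it was 0.0659 for Dgkz and 0.123 for Ptpn6. Without CD103-Klrg1- replicate 1 it was 0.0501 for Themis, 0.196 for Dgkz and 0.227 for Ptpn6, and without replicate 2 it was 0.1 for Pag1, 0.167 for Dgkz and 0.175 for Ptpn6. The lowest adjusted p over the 10 alternatives was 0.000453 for Pag1, 0.000825 for Grap2, 0.00102 for Malt1, 0.00128 for Ptpn6, 0.00136 for Themis and 0.0147 for Dgkz. Without DEC CD25- replicates 3 and 4, whose scatter enters the shared error, 11 members were called against CD103-Klrg1- cells and 6 against CD103+Klrg1+ cells. The shares of all genes called in that fit are not given here, so these counts have no background beside them.

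Nfatc1, the NFAT factor that its own activity induces, had the largest difference of any member between LP Treg and CD103-Klrg1- cells without being called. It stood at 12.52 and 12.01 against 10.24 and 9.50, a difference of 2.40 ± 0.67 (adjusted p 0.0508), and its adjusted p was 0.000132 without DEC CD25- replicates 3 and 4, of which replicate 3 lies at 8.32. The CD103+Klrg1+ arrays stood at 10.89 and 10.28, and the difference from them was 1.68 ± 0.67 (adjusted p 0.337). The 3 NFAT factors all lay above 0 in both comparisons, with medians of 0.85 and 0.36. Ubash3b separated the comparisons: LP Treg lay at 10.63 and 10.44, above the CD103-Klrg1- arrays and below the CD103+Klrg1+ arrays at 11.73 and 11.72 (-1.19 ± 0.34, adjusted p 0.103).

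The median log2 fold change of the members was 0.25 against CD103-Klrg1- and 0.41 against CD103+Klrg1+ cells, where all tested genes had 0.05 in both, and 28 and 30 of 39 members lay above 0. Arrays did not overlap for 29 members in each comparison, 20 higher and 9 lower in the first and 21 higher and 8 lower in the other, with 53.2% and 49.5% of all genes. At an unadjusted p under 0.05 there were 12 and 11 members, with 14.6% and 10.5% of all genes. Of the wider list 6 and 3 of 95 genes were called. Rel, an NF-kB subunit, was higher by 2.64 (adjusted p 0.00399) and 2.88 (0.00348), Tnfaip3, an inhibitor of the NF-kB route, by 3.15 (0.00791) and 2.83 (0.0317), and Trat1 was lower, at -1.70 (0.00584) and -1.49 (0.0275). Sos1, an exchange factor for Ras, was called against CD103-Klrg1- cells, at -0.99 (0.0177). Both comparisons share the LP Treg arrays.

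The levels of some members set whole systems apart, Treg cells and partners alike, in the homeostatic and DEC systems no more often than those of genes in general. The members listed here were picked after their values were seen, and their levels are given as a description without a test. In the homeostatic system all 6 arrays lay below the other 17 arrays for Ubash3a and Malt1, or 5.13% of the members, and 5.09% of all tested genes lie apart there in one direction or the other. Ubash3a stood at 5.75 to 7.09 there and at 7.76 or above elsewhere, yet its second probe set did not separate that system, with means of 7.80 and 8.34 in the homeostatic groups and 7.44 to 9.32 in the rest. Malt1 stood at 8.86 to 9.39 in homeostatic cells and at 9.55 or above elsewhere. Cblb, the ubiquitin ligase that sets the need for costimulation, came near this pattern on the probe set used. It stood at 9.25 to 11.07 on the homeostatic arrays and at 11.02 to 13.27 on the others. The gene's other probe sets had homeostatic means just below the lowest of the rest. These were 10.20 and 10.22 against 10.335 to 11.06, and 9.39 and 9.48 against 9.51 to 11.16.

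**Figure D5:**
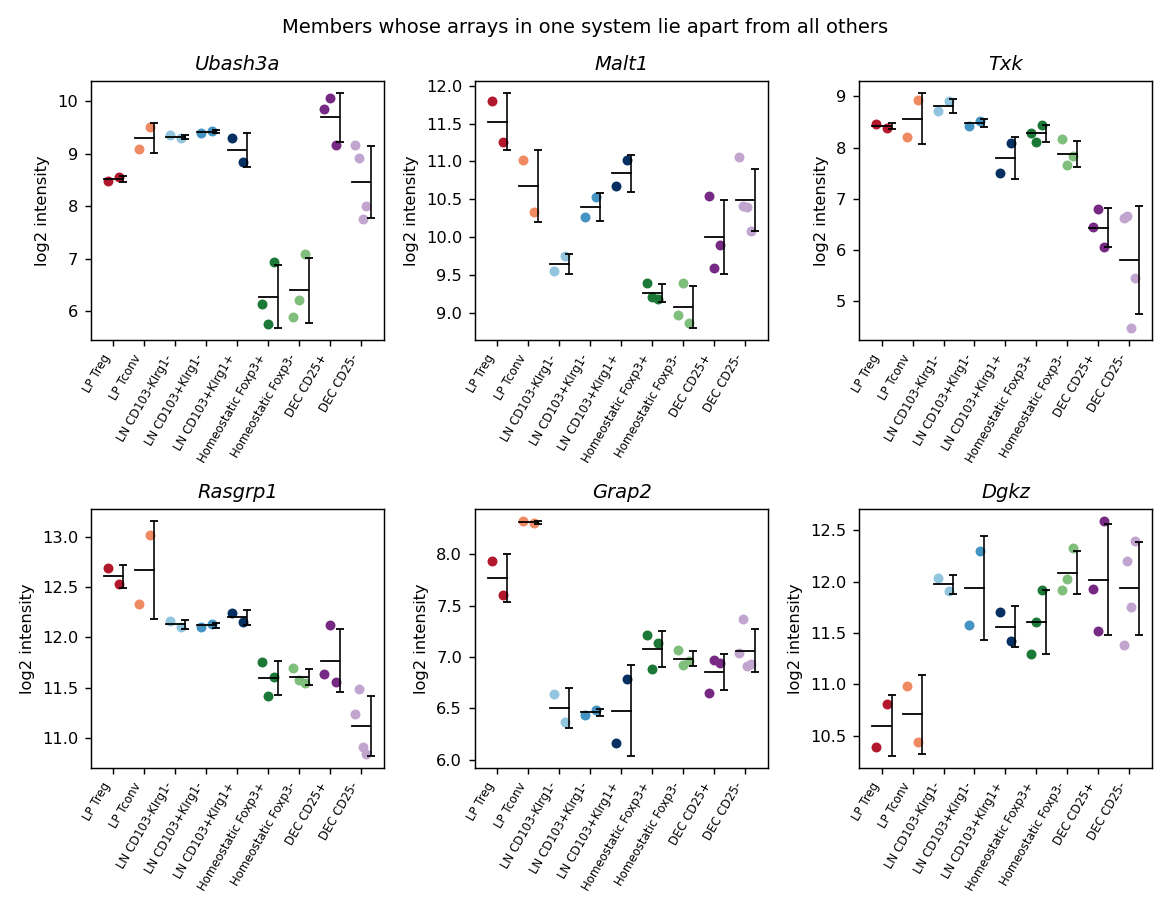
Log2 intensity of the 6 members whose arrays in 1 system lie apart from all other arrays, 1 point per array, with the group mean (line) and SD (bar); the panels have different scales. The 6 homeostatic arrays are lowest for Ubash3a and Malt1, the 7 DEC arrays for Txk and the 4 gut arrays for Dgkz, while the gut arrays are highest for Rasgrp1 and Grap2.

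In the DEC system all 7 arrays lay below the other 16 for Txk, or 2.56% of the members, where 5.54% of all genes lie apart. Txk stood at 4.47 to 6.81 there, partly below the filter, and at 7.51 to 8.92 elsewhere. In the gut all 4 arrays lay apart from the other 19 for 3 members, or 7.69% (1.5% of all genes). Grap2 stood at 7.60 to 8.32 against at most 7.37, and Rasgrp1 at 12.33 to 13.02 against at most 12.25. Dgkz stood at 10.39 to 10.98 against 11.29 or above. The second probe sets of Grap2 and Dgkz did not set the gut apart: group means were 6.62 and 6.74 in the gut and 6.32 to 7.16 elsewhere for Grap2, and 7.38 and 7.64 against 7.11 to 7.89 for Dgkz. No member set the 6 lymph node arrays apart, where 1.81% of all genes did. Strain, transgenic receptor, host and site cannot be told apart in these patterns.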

How the data were processed

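RNA of 23 arrays in 9 groups was measured after 2 rounds of amplification, per the labels' protocols. The authors ran the RMA algorithm, per the series' design text and the submitters' processing notes, and deposited intensity values on a linear scale (4.71 to 26750), of which log2 was taken with no pseudocount. RMA has already corrected background and summarised probes, so probe-level choices could not be varied, and probe sets with several gene symbols were left out (932), which drops genes that share probes.

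One probe set per gene (highest mean) gave 18193 genes, of which 12516 had a group mean above the median of all values, 77.0 intensity units. The linear model of limma 3.58.1 (R 4.3.3; lmFit, eBayes) had a mean per group over all arrays (14 residual and 3.48 prior degrees of freedom), and two-sided p-values were adjusted by Benjamini-Hochberg over all tested genes, with calls under 0.05. The fit was tested on simulated data. Tables and figures used Python 3.11.15, pandas 2.3.3, numpy 2.4.6 and matplotlib 3.10.9. No scan batch is given in the sources used here. The few arrays per group limit every precision. Alternatives were quantile normalization, no filter, the mean of probe sets, compared groups alone, a replicate block, no dim arrays and leaving out each array.

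The labels do not say that replicate numbers pair pools. Residuals of same-number arrays correlated at 0.661, 0.58 and 0.486 across genes in the homeostatic groups and at 0.394, 0.512 and 0.385 in the DEC groups, so the numbers were read as pairs there, and the paired result stands beside the unpaired one where it changes a call. DEC CD25- replicate 4 has no array to pair with and so carries no weight in the paired fit. Other groups hold only 2 arrays, too few to read pairs, yet the paired fit also blocked them by number. Those blocks enter its shared spread. The members and gene lists were chosen with earlier results of these data known. In the text every called member is named, with the 2 largest differences in either direction among the others in the partner comparisons, and at most 4 called genes of the wider list per comparison. Members named beyond this rule were picked after their values were seen.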

Additional observations from a re-analysis of the deposited data

Results flagged for a closer look

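In the DEC CD25- group of 4 arrays, 4 of the 39 members (10.3%, against 6.14% of all tested genes) had 1 array far below the other 3, with a gap to the nearest array that took up more of the group's range than Dixon's critical value allows, which chance exceeds in about 1 of 20 groups. In replicate 3, Nfatc1 stood at 8.317 on the log2 scale against 11.06 to 11.33, Dgka at 10.69 against 11.99 to 12.21, and Prkcq at 11.13 against 11.93 to 12.09. In replicate 4, Nfatc3 stood at 9.694 against 10.60 to 10.76. Groups of fewer than 4 arrays were not tested. Replicates 3 and 4 are the 2 arrays with the lowest median intensity, and their part in these values was not tested.

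Themis differed between LP Treg and LP Tconv by an amount unlike that of the other systems, by -2.391 against the homeostatic and by -2.127 against the DEC difference (limma, adjusted p 0.00191 and 0.00437), with the LP Treg arrays lowest of all 23.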

How the results depend on the processing

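The counts of called members moved with the settings as follows, in each case from the counts in the report, and a setting not named for a comparison left its count as it was. Shares of all tested genes called are given only where the report states them. The other counts therefore do not set the members apart from genes in general. In a fit of the compared groups alone they were 0 for the gut partners, 7 for the homeostatic and 0 for the DEC partners, 10 and 3 for LP Treg over CD103-Klrg1- and CD103+Klrg1+ cells, and 2 and 0 for the gut minus homeostatic and gut minus DEC differences. Quantile normalization gave 2 for the homeostatic partners, 7 and 4 for LP Treg over CD103-Klrg1- and CD103+Klrg1+ cells, 2, 2 and 1 for the 3 differences of differences. A replicate block gave 5 for the gut partners, adding Malt1 (adjusted p 0.0143), 4 and 2 for the homeostatic and DEC partners, 2 for CD103+Klrg1+ over CD103-Klrg1- cells, adding Malt1 (1.20 ± 0.17, adjusted p 0.00226), 11 and 4 for LP Treg over the lymph node subsets, and 2, 3 and 1 for the differences of differences. Residual correlations of same-number arrays were -0.0678 in the gut and 0.374 to 0.72 in the lymph node. With 2 arrays a group both numbers give the same correlation, so pairing was not read from it in the lymph node, where the correlations are about as high as in the DEC groups and the numbers may pair arrays. Without DEC CD25- replicates 3 and 4 there were 5 for the gut partners, 4 and 0 for the homeostatic and DEC partners, 3 for CD103+Klrg1+ over CD103-Klrg1- cells, 11 and 6 for LP Treg over the lymph node subsets, and 2 for gut minus homeostatic. The mean of all probe sets gave 2 for LP Treg over CD103-Klrg1- cells, Cbl and Nfatc1, and called Cbl in place of Grap2 over CD103+Klrg1+ cells. Leaving out 1 array at a time gave 1 to 3 for the gut, 1 to 1 for the homeostatic and 0 to 2 for the DEC partners, 0 to 0 in each lymph node comparison, 1 to 4 and 0 to 1 for LP Treg over the lymph node subsets, and 1 to 2, 0 to 2 and 0 to 1 for the differences of differences.

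For members called in the report or under an alternative and the largest differences, 755 values kept direction and side of the threshold, 66 passed it under an alternative, 45 lost it and 0 reversed. Over all members, 383 of 5343 values changed sign, none of a called member and 62 in the DEC comparison. The cause of these shifts was not tested. With arrays left out, the standard errors of called members were larger in 79 of 98 values and smaller in 19. Groups of 2 to 4 pools limit what can be called, low signals lie near background, and another background correction and a slide or scan block could not be run on the deposited table.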
